A study of Mus musculus with 96 samples.

Results

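The subject here is the copy number of 7 loci, named for the genes Myc, Met, Gata6, Yap1, Akt2, Ccnd1 and Mdm2, which are known as oncogenes gained or amplified in pancreatic cancer. Each locus is the single genomic bin that holds the start of its gene in the mouse build mm9, and the members are 7 of 4906 bins. The rule uses gene positions and no copy value, but the genes were proposed with earlier results of these data known. The measurements came from KPC1199EGFP, a mouse pancreatic cancer cell line of the C57BL\6 background that expresses EGFP. Adherent cells at passage 9, grown without treatment, gave nuclei in a buffer with the DNA dye DAPI, which were sorted by DNA content. The genomes of 94 single nuclei were amplified and sequenced, 47 sorted as 2N, 35 as 2N+, a name read as more DNA than 2N, and 12 as 4N. A bulk library each of the 2N and the 2N+ gate made up the 96 libraries. All libraries share the line, the passage, the medium and the absence of treatment, and differ only in the gate and in being a single nucleus or bulk. The labels name no engineered alleles of the line and no separate cultures.

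The model is 1 cell line in culture, and nothing in the labels divides its nuclei into more than 1 culture. A gate is then 1 sample of many cells. No test between gates was run for that reason, SDs describe the spread of nuclei, and the 95% intervals, exact by Clopper and Pearson, hold counting error alone. Where a count is 0, the share it allows is given as 3 counts of the total, which lies somewhat under the upper end of the exact interval and also holds counting error alone.

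The 7 genes act at different levels of growth control. Met is the receptor tyrosine kinase for hepatocyte growth factor, and Akt2 is a kinase that acts downstream of PI3-kinase, which receptors of this kind switch on. Yap1 is the transcriptional coactivator that the Hippo pathway restrains, Myc is a transcription factor that drives growth and proliferation, and Gata6 is a transcription factor of endoderm and pancreas whose expression marks the classical subtype of pancreatic cancer. Ccnd1 encodes cyclin D1, which with its partner kinases moves cells out of G1, and Mdm2 is the ubiquitin ligase that degrades p53. An oncogene can gain copies with its whole chromosome, with an arm-sized piece, or by a short amplification around it. The copy ratios speak to DNA alone, so no RNA or protein level of these genes was measured here.

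In mm9, with positions counted from 1, the Myc bin lies at chr15:61658776-62129530 and is bin 117 of 203 on its chromosome. The Met bin, at chr6:17271272-17742186, is bin 28 of 289, with Cav2 and Cav1 before Met and Capza2 after it in the RefSeq gene order of GRCm38.p6. The Gata6 bin, at chr18:10532511-11011763, is bin 15 of 178. The Yap1 bin, at chr9:7591975-8103372, is bin 9 of 246, where Birc2 and Birc3, inhibitors of apoptosis, directly precede Yap1. Chromosome 7 carries both Akt2, at chr7:28377233-28923056 in bin 30 of 260, and Ccnd1, in bin 260 of 260, which runs from 152071115 to the end of the chromosome. Mdm2, at chr10:116629768-117118512, is in bin 229 of 255. The median bin was 486 kb wide, so a bin value belongs to a gene together with its neighbours, and no exon or intron can be told apart. The starts were given to 0.1 Mb, and within that rounding 4 loci could lie in an adjacent bin: Gata6 and Mdm2 in the next, Akt2 and Ccnd1 in the one before.

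The deposited value of a bin is a linear ratio, equal over long runs of bins, whose mean in each library lay near 1, so it was read as relative to that library's own level. Copies per nucleus are that ratio times a multiplier, the factor between 1.5 and 6 that brought the autosomal bins of a nucleus nearest to whole numbers. Its median was 2.40 in the 2N gate (range 2.20 to 2.7), 2.55 in the 2N+ gate (2.15 to 2.7) and 2.53 in the 4N gate (2.20 to 4.70). Read depth is unknown for every library. Of the 658 copy values at the 7 loci, 625 lay within 0.2 copies of a whole number. In 8 nuclei the residual from whole copies was above 0.15, and 6 nuclei had more than 60 breakpoints inside chromosomes, 3 of the 2N+ and 3 of the 4N gate. An even doubling of every chromosome leaves all ratios as they were, so copies in the 4N gate depend most on the multiplier. An evenly doubled nucleus would be given too few copies, so all 4N copies and shares hold at the fitted multiplier only.

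The 7 loci fell into 3 classes. Met had at least 3 copies in 94 of 94 nuclei. Myc and Gata6 were at 2 copies in some nuclei and at 3 in others. Yap1, Akt2, Ccnd1 and Mdm2 were all at 2 copies in every 2N nucleus (47 of 47) and in 34 of 35 2N+ nuclei. As background, 40.6% of all pairs of a nucleus and a bin of chromosomes 1 to X were at 3 copies or more for 2N, 50.5% for 2N+ and 61.4% for 4N. The 7 loci were at that level in 85 of 329 pairs of locus and nucleus from the 2N gate, or 25.8%, in 95 of 245 from 2N+, or 38.8%, and in 44 of 84 from 4N, or 52.4%. The loci as a group were thus gained less often than the bins of the table as a whole, with 4 of the 7 on chromosomes mostly at 2 copies. Bins of 1 chromosome share segments, so these shares are descriptions without a test. In 654 of the 658 pairs of a locus and a nucleus, the rounded copies of the locus equalled the rounded median of its whole chromosome.

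**Figure D1:**
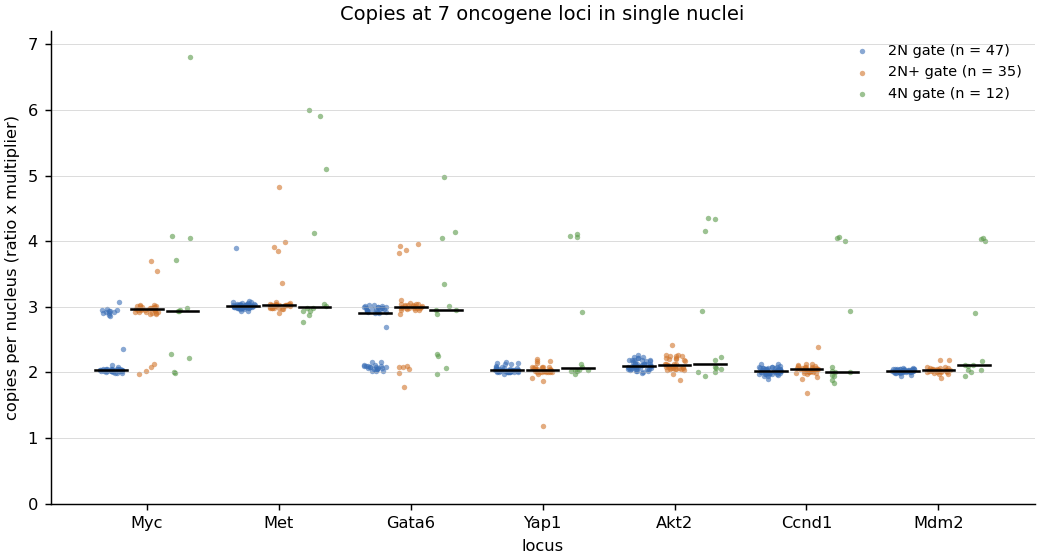
Copies per nucleus (ratio times multiplier, vertical axis) at each of the 7 loci (horizontal axis) in the 2N (blue, n = 47), 2N+ (orange, n = 35) and 4N gate (green, n = 12). Each point is a nucleus and each black line the median of a gate. Met sits at 3 copies, Myc and Gata6 split between 2 and 3, and the other 4 loci sit at 2 outside 4 nuclei of the 4N gate and the 1 nucleus of 2N+ with Yap1 near 1.

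Met, the receptor, lay between 2.94 and 3.9 copies in 2N nuclei, with a median of 3.02 (SD 0.133, n = 47). Its 2N+ values ran from 2.90 to 4.83 with a median of 3.03 (SD 0.393, n = 35), and its 4N values from 2.78 to 6.00 with a median of 3.0 (SD 1.24, n = 12). The medians of the 3 gates were nearly the same, and the gates differed mainly in the highest values. A count of 4 copies or more was found in 1 of the 2N, 4 of the 2N+ and 4 of the 4N nuclei. The ratio of Met to Mdm2 within a nucleus is free of the multiplier, and its medians were 1.49, 1.49 and 1.43 in the 2N, 2N+ and 4N gates. It reached 1.25, the midpoint between the ratios of 2 to 2 and of 3 to 2 copies, in 47 of 47, 35 of 35 and 12 of 12 nuclei.

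Akt2, the kinase below such receptors, had a 2N median of 2.11 copies (range 1.99 to 2.27, SD 0.0667). The 2N+ median was 2.11 (1.89 to 2.41, SD 0.0998), and the 4N median 2.14 (1.95 to 4.35, SD 0.993). Rounded, Akt2 stood at 2 copies in every nucleus of the 2N and 2N+ gates, but 17 of its 94 values were over 0.2 copies from a whole number. That was more than at Myc with 6, Gata6 with 5, Met and Ccnd1 with 2 each, Yap1 with 1 and Mdm2 with 0.

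Among the transcriptional regulators, Myc had the widest gap between the 2N and 2N+ medians. Its 2N values ranged from 2.0 to 3.07 copies with a median of 2.04 (SD 0.395, n = 47). The 2N+ values ranged from 1.98 to 3.69 with a median of 2.96 (SD 0.347, n = 35), and the 4N values from 1.99 to 6.80 with a median of 2.94 (SD 1.34, n = 12). Most 2N nuclei thus had 2 copies of Myc and most 2N+ nuclei 3, although the ranges of the gates overlapped. At least 3 copies of Myc were counted in 12 of 47 nuclei sorted as 2N, or 25.5% (95% interval 13.9 to 40.3), in 31 of 35 sorted as 2N+, or 88.6% (73.3 to 96.8), and in 8 of 12 sorted as 4N, or 66.7% (34.9 to 90.1). Nuclei were sorted on DNA content itself, so a gain of copies and the choice of nuclei by the gate cannot be told apart.

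Against Mdm2 in the same nucleus, Myc had a median ratio of 1.01 among 2N nuclei (SD 0.194), 1.45 among 2N+ nuclei (SD 0.174) and 1.21 among 4N nuclei (SD 0.233). It was at 1.25 or more in 12 of 47, 31 of 35 and 6 of 12 nuclei. In the 2N and 2N+ gates these counts equalled those from copies. In the 4N gate 2 fewer nuclei passed by the ratio than by copies. The highest Myc value of the table was 6.80 copies in nucleus 3 of the 4N gate, beside 5.10 of Met and 4.04 of Mdm2, and its ratio to Mdm2 was 1.69.

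Gata6 had from 2.02 to 3.03 copies among 2N nuclei with a median of 2.91 (SD 0.443). Its 2N+ values ran from 1.78 to 3.95 with a median of 2.99 (SD 0.514), and its 4N values from 1.98 to 4.98 with a median of 2.95 (SD 0.925). The 2N nuclei were split nearly evenly, with 21 at 2 copies and 26 at 3, so a median alone hides the lower class. The share with at least 3 copies of Gata6 was 55.3% in the 2N gate (40.1 to 69.8), 82.9% in 2N+ (66.4 to 93.4) and 66.7% in 4N (34.9 to 90.1). At least 4 copies of Gata6 were found in 0 of 47 2N nuclei, which allows a share of up to 6.38%, and in 4 of 35 2N+ nuclei. The ratio of Gata6 to Mdm2 had medians of 1.44, 1.47 and 1.15 in the 3 gates and was at 1.25 or more in 26, 29 and 4 nuclei. With the multiplier held between 2 and 3, the 4N share at 3 copies or more was 41.7% for Gata6 and 50% for Myc.

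Yap1 had median copies of 2.03 among 2N nuclei (range 1.98 to 2.15, SD 0.0405), 2.03 among 2N+ nuclei (1.18 to 2.21, SD 0.160) and 2.06 among 4N nuclei (1.98 to 4.11, SD 0.914). Its low value of 1.18 copies was in nucleus 30 of the 2N+ gate, the only one of the 7 loci at 1 copy in any nucleus. Chromosome 9 as a whole was at 1 copy there, and the same nucleus had 3.99 copies of Met and 3.95 of Gata6, with a residual from whole copies of 0.164.

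Ccnd1 and Mdm2, which act on the cell cycle and on p53, also stood near 2 copies in most nuclei. Ccnd1 had medians of 2.03 (range 1.90 to 2.13), 2.05 (1.69 to 2.39) and 2.01 copies (1.84 to 4.06) in the 2N, 2N+ and 4N gates. Mdm2 had medians of 2.03 (1.95 to 2.08), 2.04 (1.92 to 2.19) and 2.12 copies (1.95 to 4.04). With an SD of 0.0258 copies over 47 nuclei of the 2N gate and 0.0485 over 35 of the 2N+ gate, Mdm2 was the least variable of the 7 loci in both.

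At Yap1, Akt2, Ccnd1 and Mdm2, 3 copies or more were found in 0 of 47 nuclei from the 2N and 0 of 35 from the 2N+ gate, which allows shares of up to 6.38% and 8.57%. Of the 4N nuclei, 4 of 12 had 3 copies or more at each of the 4 loci, or 33.3% (9.92 to 65.1). These were the same 4 nuclei, numbers 2, 3, 4 and 5, whose multipliers were 3.45, 4.65, 4.65 and 4.70. With the multiplier limited to 2 to 3, the count fell to 0 at all 4 loci. Relative to each other, the 4 loci had equal rounded copies in 47 of 47, 34 of 35 and 12 of 12 nuclei.

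Ordered by median copies, the 2N gate ran Met, Gata6, Akt2, Myc, Yap1, Ccnd1 and Mdm2, and only the step from Gata6 to Akt2, of 0.81 copies, was wider than the larger SD of the loci beside it. Among 2N+ nuclei Myc stood directly behind Met and Gata6, and only its step down to Akt2, of 0.85 copies, was wider than the larger SD. Among 4N nuclei the first 3 were again Met, Gata6 and Myc, and no step between neighbours was wider than the SD. All other neighbours in these orders differed by less than their spread over nuclei.

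The states of the loci in the same nucleus formed 15 different sets over the 94 nuclei. Among the 47 2N nuclei, 18 had 3 copies of Met and of Gata6 with 2 of Myc, and 16 had 3 of Met alone. Among the 35 2N+ nuclei, 22 had 3 copies of Met, Myc and Gata6 together, a set that 7 of the 2N and 3 of the 4N nuclei also had. The other 4 loci were at 2 copies in all of these nuclei. The 2N, 2N+ and 4N gates held 5, 9 and 8 of the sets.

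**Figure D2:**
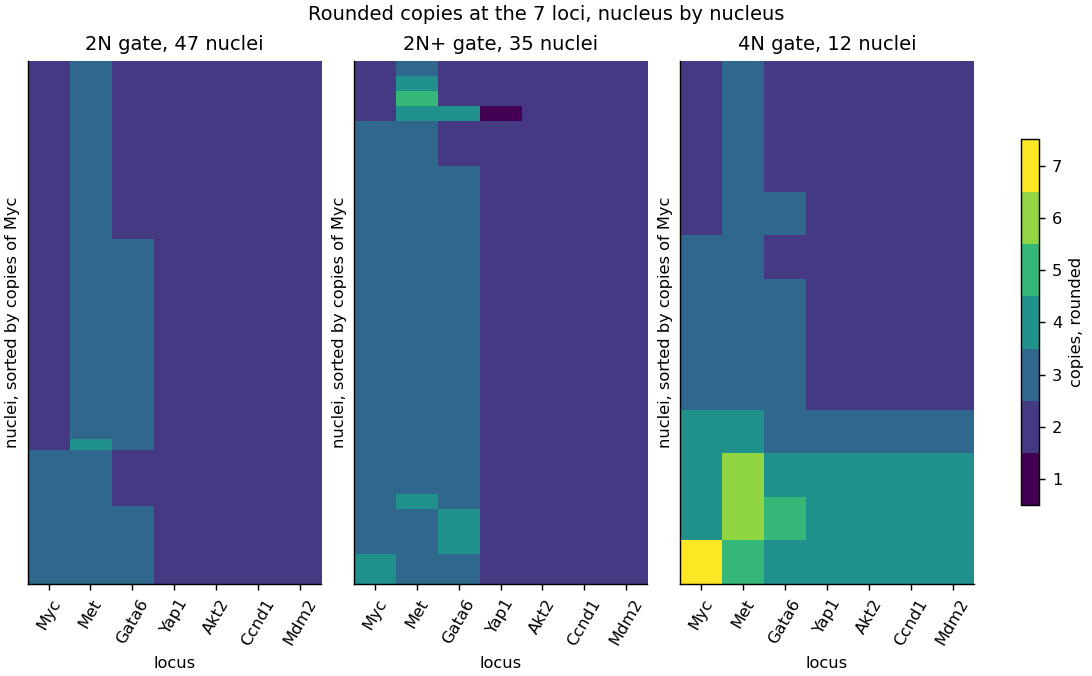
Rounded copies (colour, from 1 to 7) at the 7 loci (columns) in each nucleus (rows, sorted by Myc) of the 2N, 2N+ and 4N gates. The block of Myc at 3 copies holds 12 of 47 nuclei in the 2N gate and most of the 2N+ gate, and the lowest rows of the 4N gate are the 4 nuclei in which all 7 loci are at 3 copies or more.

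Myc and Gata6 both had at least 3 copies in 7 of 47, 28 of 35 and 7 of 12 nuclei of the 2N, 2N+ and 4N gates. Among 2N nuclei, Gata6 was at that level in 58.3% of the 12 nuclei with Myc at 3 or more and in 54.3% of the 35 others. The same shares were 90.3% of 31 and 25% of 4 nuclei in 2N+, and 87.5% of 8 and 25% of 4 in 4N. The group with Myc at 2 copies is thus only 4 nuclei in each of the 2N+ and 4N gates. In 2N+ these were nuclei 22, 24, 25 and 30. Nuclei 22 and 24 had 91 and 87 breakpoints, and nuclei 22 and 30 had residuals of 0.162 and 0.164. The 4 such nuclei of 2N+ also differed from the rest at Met: 3 of them had 4 copies or more, against 1 of the 31 others.

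Those 3 nuclei were numbers 24, 25 and 30 of the 2N+ gate. Nucleus 25 had 3.92 copies of Met in a segment of 164 of the 289 bins of chromosome 6, and nucleus 30 had 3.99 in a segment of all 289. Nucleus 24 had 4.83, with the rounded median of the chromosome at 3. The single 2N nucleus with 4 copies of Met was number 34, with 3.9 copies in a segment of 84 bins, a chromosome median that rounded to 4 and Myc at 2.05 copies.

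The chromosomes whose rounded copies most often equalled those of a varying locus describe which other states went with it. They share the library and the multiplier with the locus, so the counts are descriptions. Myc had the same copies as chromosome 5 in 66 of 94 nuclei, as chromosome 16 in 63 and as chromosome 1 in 60. Gata6 had the same copies as chromosome 1 in 68, as chromosome 2 in 63 and as chromosome 15 in 57. Met had the same copies as chromosome 11 in 88 nuclei, as chromosome 17 in 87 and as chromosome 8 in 82. By gate, Myc equalled chromosome 5 in 41 of 47 2N nuclei but in 17 of 35 2N+ nuclei, and chromosome 1 in 25 and 28.

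Yap1, Akt2, Ccnd1 and Mdm2 passed the rule for varying loci in the 4N gate alone. Each equalled chromosome 4 in 93 or 94 of 94 nuclei.

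Whether a gene was gained beyond its chromosome was read from the log2 ratio of its bin to the median of all other bins of the same chromosome, which needs no multiplier. A focal gain was a value of at least 0.2 and a focal loss one of -0.2 or less. From the 2N gate, 0 of 329 pairs of locus and nucleus had a focal gain, where 3.24% of all pairs of bin and nucleus did, and 0 had a focal loss, where 3.52% did. From the 4N gate, 0 of 84 pairs had a gain, where 3.81% of all bins did, and 0 a loss, where 4.59% did. From the 2N+ gate, 6 of 245 pairs had a gain, or 2.45%, beside 2.26% of all bins, and 2 had a loss, or 0.816%, beside 3.45%. The members' share of gains in the 2N+ gate was thus near that of all bins and is no result about these genes.

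**Figure D3:**
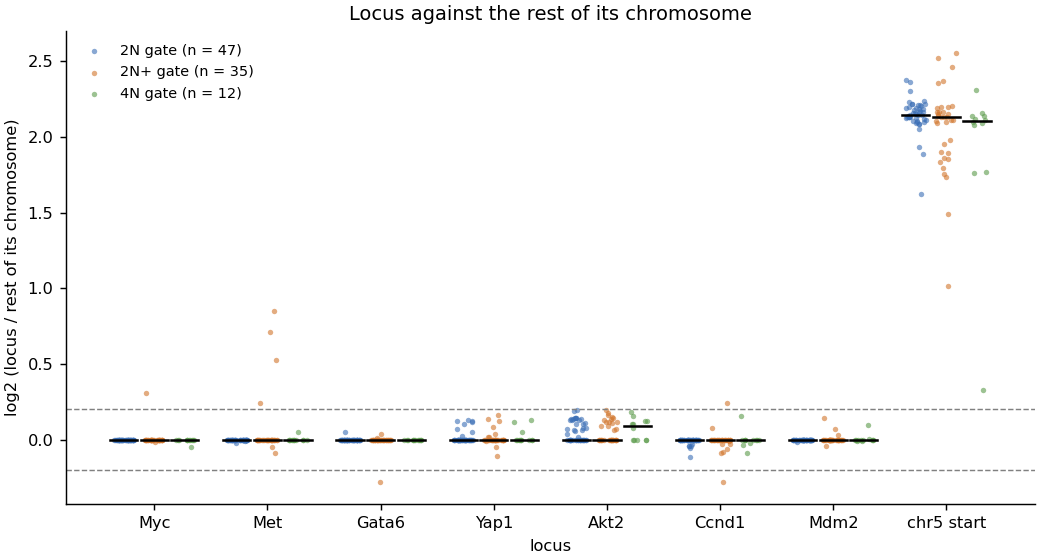
The log2 ratio of each locus to the rest of its chromosome (vertical axis) in each nucleus (points, colours by gate, black lines for medians), with the first 5 bins of chromosome 5 beside the 7 loci for scale. Dashed lines mark the thresholds of 0.2 and -0.2: 8 points of the 7 loci lie beyond them, all of the 2N+ gate, and every point of the chromosome 5 start lies above them.

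The start of chromosome 5 was taken for scale because its ratio was known to be high. That it passed the threshold is therefore no test of the measure. There the median of several bins, and no single bin, was set against the rest of the chromosome. Over the first 5 bins of chromosome 5, the median log2 ratio to the rest of the chromosome was 2.15 for 2N, 2.13 for 2N+ and 2.10 for 4N nuclei. All 47, 35 and 12 nuclei passed the threshold, with lowest values of 1.62, 1.01 and 0.33. Median copies there were 9.03, 9.23 and 9.31. The highest log2 ratio of any of the 7 oncogene loci was 0.85, at Met in a 2N+ nucleus, below the lowest 2N and 2N+ value of the chromosome 5 start.

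The 8 focal calls lay in 6 nuclei of the 2N+ gate, and 5 of the 8 lay in the 3 nuclei of that gate with more than 60 breakpoints, numbers 22, 24 and 31. The part of the breakpoint-rich state of these nuclei in the calls was not tested.

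Met had 4 of the 6 gains, in 4 of 35 2N+ nuclei or 11.4% (95% interval 3.20 to 26.7), and in 6.25% without the nuclei of more than 60 breakpoints. In nucleus 1, Met was at 3.86 copies against 2.14 for the rest of chromosome 6, a log2 ratio of 0.85, in a segment that ran over the first 59 bins, to position 33292628. In nucleus 8 it was at 3.03 against 2.10, a log2 ratio of 0.53, over the first 73 bins, to position 39985359. Met itself was at its usual 3 copies in nucleus 8, and the rest of the chromosome was low. The rest of chromosome 6 was at 2 copies in only these 2 of 35 2N+ nuclei, and in 0 of 47 2N and 0 of 12 4N nuclei.

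The other Met gains were shorter. Nucleus 22 had 3.37 copies against 2.84, a log2 ratio of 0.24, in a segment of 21 bins or 10.8 Mb. Nucleus 24 had 4.83 copies against 2.96, a log2 ratio of 0.71, in a segment of 3 bins that spanned 1.46 Mb and ended with the Met bin. This was the shortest segment around Met in any nucleus. Met was not the highest part of chromosome 6 in either nucleus. The end of the chromosome was at 4.56 copies in nucleus 22 and 4.90 in nucleus 24. Nuclei 22 and 24 had 91 and 87 breakpoints, where the median of the gate was 20. Against bins 4 to 23 away instead of the whole chromosome, the Met gains fell to 2.86% of 2N+ nuclei.

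**Figure D4:**
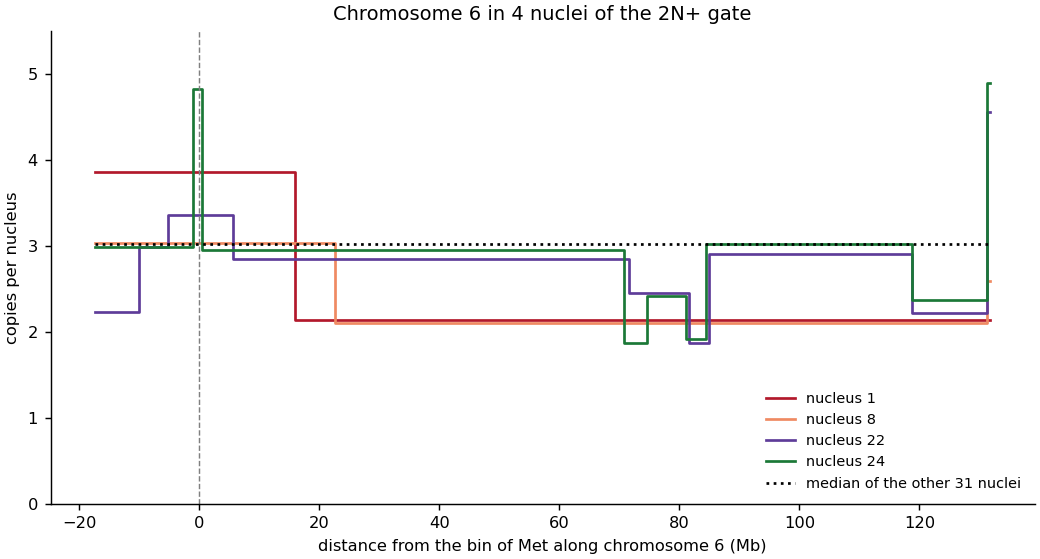
Copies along chromosome 6 (vertical axis) against the distance from the Met bin in Mb (horizontal axis) in the 4 nuclei of the 2N+ gate with a focal gain of Met, and the median of the other 31 nuclei of the gate (dotted). Nuclei 1 and 8 step down after Met to 2 copies, while nuclei 22 and 24 carry a raised segment around Met and several low segments further along. At the end of the chromosome nuclei 22 and 24 rise again, to 4.56 and 4.90 copies, above their values at Met.

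The single gain at Myc, in nucleus 31, was 3.55 copies against 2.86 for the rest of chromosome 15, a log2 ratio of 0.31, in a segment of 10 bins or 4.85 Mb. That nucleus had 72 breakpoints and a residual of 0.163, and without the nuclei of more than 60 breakpoints the share of 2N+ nuclei with a Myc gain was 0. In the other 93 nuclei the Myc bin lay within 0.1 of the rest of its chromosome, and in 91 it had exactly the chromosome's median value. The gain of Myc in most 2N+ nuclei was therefore that of the median of chromosome 15, as far as bins of this width show. The segment that held Myc was the whole chromosome in 24 of 35 2N+ nuclei and a part of it in the others.

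Ccnd1 had 1 gain and 1 loss. The gain, in nucleus 20, covered the last 3 bins of chromosome 7 at 2.39 copies against 2.02, a log2 ratio of 0.24, in a nucleus with 15 breakpoints. Against bins 4 to 23 away, the share of 2N+ nuclei with a Ccnd1 gain was 8.57% instead of 2.86%. The loss, in nucleus 31, covered the last 30 bins at 1.69 copies against 2.05, a log2 ratio of -0.28. Both differed from the rest by under 0.5 copies, so neither amounted to a whole copy. Gata6 had 1 loss, in nucleus 24, at 1.78 copies against 2.16 over the first 28 bins of chromosome 18, a log2 ratio of -0.28, which also differed by under 0.5 copies.

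Yap1, Akt2 and Mdm2 had a focal call in 0 of 47, 0 of 35 and 0 of 12 nuclei, which allows shares of up to 6.38%, 8.57% and 25%. The highest log2 ratio was 0.16 for Yap1 and 0.14 for Mdm2. Akt2 came closest to the threshold: its highest values were 0.1957 and 0.1892 in 2N nuclei, 0.1941 and 0.1729 in 2N+ nuclei and 0.184 in a 4N nucleus. The gains of Ccnd1 in nucleus 20 and of Met in nucleus 22 passed the threshold by little, with log2 ratios of 0.2409 and 0.2435.

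The segment that held Mdm2 was the whole chromosome in 83 of 94 nuclei, that of Gata6 in 79, those of Myc and Met in 73 each and that of Yap1 in 70. For Akt2 and Ccnd1 it was 38 nuclei, fewer than for any other locus. Segments of 10 bins or fewer held Ccnd1 in 2 nuclei, Myc in 1 and Met in 1, and none held Gata6, Yap1, Akt2 or Mdm2. Over all nuclei the chromosomes held 4110 segments, 605 of them of up to 10 bins, with 323 of 3 to 5 bins and 24 of 1 or 2. These are counts of segments, and a short segment holds few bins. The share of all bins in such segments was not computed, so no lack of them at the loci can be read.

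Akt2 and Ccnd1 share chromosome 7, near its start and at its end, and their ratio within a nucleus shows a small step between them. In 38 nuclei 1 segment held both, and in the other 56 the chromosome was split. Akt2 was above Ccnd1 in 27 of 47, 19 of 35 and 8 of 12 nuclei of the 2N, 2N+ and 4N gates, and below it in 0, 2 and 0. Among nuclei with a split, Akt2 was higher by a median of 7.83% for 2N, 8.19% for 2N+ and 8.09% for 4N. A change from 2 to 3 copies would be a ratio of 1.5, so the step was a fraction of a copy. The Akt2 segment most often ended at position 56081510, in 18 of the 56 nuclei. Both bulk libraries had such a step at Akt2, with log2 ratios to the rest of the chromosome of 0.15 in 2N and 0.12 in 2N+.

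**Figure D5:**
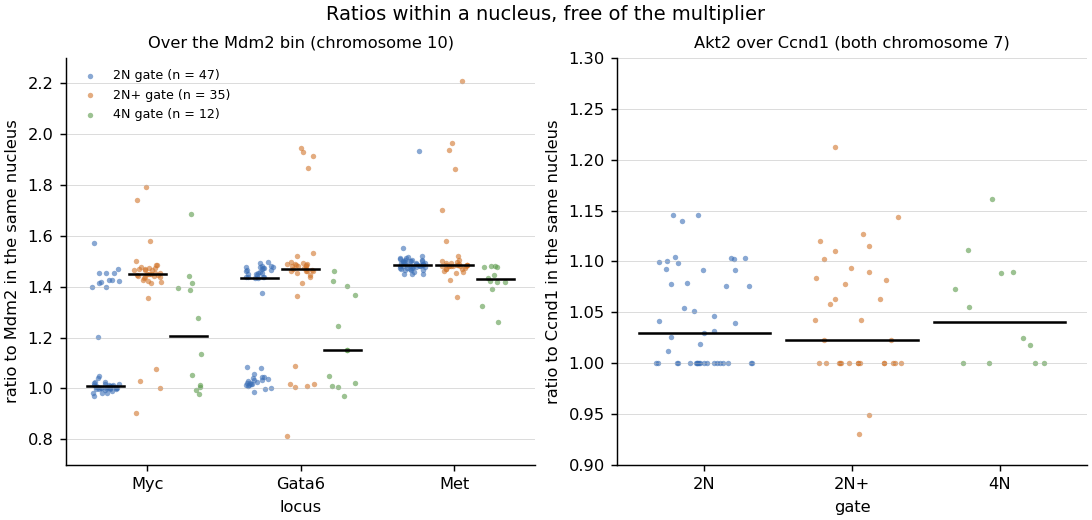
Ratios of bins within a nucleus, which no multiplier changes: Myc, Gata6 and Met over Mdm2 (left) and Akt2 over Ccnd1 (right), by gate, with medians as black lines. On the left Myc has medians of 1.01, 1.45 and 1.21 in the 2N, 2N+ and 4N gates while Met stays near 1.49, 1.49 and 1.43, and on the right most values above 1 lie under 1.15.

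The 4N gate was a mix by the multiplier. In 8 of 12 nuclei it lay between 2 and 3, as in the other gates. Rounded at that multiplier, the loci stood at 2 or 3 copies there: Met at 3 in all 8, Myc at 3 in 4 and Gata6 at 3 in 4. An evenly doubled nucleus has the same ratios and so the same multiplier. Sorted as 4N, these nuclei may therefore hold more copies than the fit gives. Of these 8, nuclei 1 and 12 had residuals of 0.197 and 0.182. Their Myc copies were 2.22 and 2.28, and their Gata6 copies 2.24 and 2.28. In nuclei 4 and 5, Met was at 6.00 and 5.92 copies, Myc at 4.07 and 4.05 and Mdm2 at 4.04 and 4.0, and the ratio of Met to Mdm2 was 1.48 in both, beside the 2N median of 1.49. Gata6 differed between them, at 4.14 and 4.98 copies. Nucleus 2 had 3.72 copies of Myc, 4.13 of Met and 3.35 of Gata6 with a residual of 0.206, the highest of the gate.

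The bulk libraries are set beside the nuclei of their gate by their ratios. The 2N bulk had a ratio of 0.969 at Myc beside a mean of 0.953 over nuclei (SD 0.134, n = 47), and the 2N+ bulk 1.14 beside 1.14 (SD 0.121, n = 35). At Gata6 the ratios were 1.03 beside 1.08 in 2N and 1.15 beside 1.16 in 2N+. At Yap1 the 2N bulk had 0.918 beside 0.863 (SD 0.0406), over 1 SD higher, with a log2 ratio of 0.13 to the rest of chromosome 9, where 39 of 47 2N nuclei were at exactly 0. All 14 bulk values lay inside the range of the nuclei, the largest absolute difference from their mean was 0.0638, at Met in the 2N+ gate, and 0 bulk values passed the focal threshold.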

How the data were processed

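Per the labels' protocols, nuclei in DAPI buffer were sorted by DNA content, amplified with the SeqXE kit and made into sequencing libraries. The submitters' processing notes list Bowtie 1.0 and mm9. How bins were built, corrected and segmented is not given in the sources used here. Linear copy ratios, with library means from 0.994 to 1.09, were deposited by the authors as 1 line of space-separated values per bin, a layout recorded as other. They are no counts, so depth is unknown, and a log2 ratio was computed from them. Multipliers of 1.5 to 6, each 0.05 apart, were tried on the autosomal bins, and that with the least mean squared distance to whole numbers was kept. Copies were rounded for counts. The rule for named genes took all 7 members and, for varying loci, the 3 chromosomes of most often equal copies. A locus varied where its most frequent copy number held under 90% of the nuclei of a gate. All 7 genes were matched in a RefSeq table of assembly GRCm38.p6, used for gene order alone. The scripts were tested on simulated data, where an exact doubling could not be seen and some uneven doublings were missed at the higher noise. Alternatives were other thresholds, references, bins, multipliers and sets of nuclei. Members and lists were chosen with earlier results of these data known. Python 3.11.15 was used with scipy 1.17.1, pandas 2.3.3, matplotlib 3.10.9 and numpy 2.4.6.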

Additional observations from a re-analysis of the deposited data

How the results depend on the processing

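Of 651 alternative values for 84 results (the share of nuclei at 3 copies or more, the median copies, and the shares with a focal gain or loss, per locus and gate), 627 stayed within the limits set for a change and 24 moved. The share of 4N nuclei at 3 copies or more fell from 33.3% to 0 at Yap1, Akt2, Ccnd1 and Mdm2 with the multiplier between 2 and 3. That range leaves out the multipliers first fitted in the nuclei concerned. In the 2N and 2N+ gates all 47 and 35 multipliers already lay in it, so it could change nothing there. Leaving nuclei out likewise cannot change a focal count of 0. A value within the limits could still differ: the 4N share of Gata6 at 3 copies or more went from 66.7% to 41.7%. The count of 627 is therefore no measure of robustness. At a focal threshold of 0.1, gains of Akt2 rose from 0 to 31.9% of 2N, 31.4% of 2N+ and 41.7% of 4N nuclei. Gains of Yap1 rose from 0 to 8.51%, 8.57% and 16.7%, of which the 2N value moved and the other values stayed within the limits. The share over all bins at a threshold of 0.1 was not computed, so these shares are no result about Akt2 or Yap1. The other moved values are of the 2N+ gate, listed here beside a few values that stayed within the limits. Gains of Met moved to 2.86% with bins 4 to 23 away as the reference. Without nuclei of more than 60 breakpoints they were 6.25%, within the limits. The gain of Myc was 0 without nuclei of residual above 0.15 or of more than 60 breakpoints, which leave out the only nucleus with it. The gain of Ccnd1 moved to 0 with the median of 11 bins, a threshold of 0.3 or a difference of 0.5 copies. With near bins as the reference it was 8.57%. The loss of Ccnd1 was 0 without nuclei of residual above 0.15 or more than 60 breakpoints, at 0.3, with near bins as the reference, and at 0.5 copies. The loss of Gata6 was 0 without nuclei of more than 60 breakpoints, at 0.3, with the mean or near bins as the reference, and at 0.5 copies. Beyond what is said, the cause was not tested. No paired analysis was possible because a number is only the name of a nucleus and the shares come from no test.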
